A study of Amphiura filiformis with 28 samples.

Results

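The brittle star *Amphiura filiformis* regrows its arms after amputation. Here the regenerating tissue of stages 3, 4 and 5 was compared with the wound-healing samples taken at 48 and 72 h post amputation (hpa), which are 5 of the 28 RNA-seq samples of the series and 5 of the 8 samples of its arm regeneration series. All animals were wild type and untreated and were collected from the sea. Each sample was a single library, pooled per the methods from 30 regenerates of different individuals, so no stage has a replicate. At 48 and 72 hpa the last arm segment at the amputation site was dissected, whereas at stages 3 to 5 only the newly grown tissue was taken. The 3 stages follow morphology. A nerve cord and a water vascular canal can first be seen in the bud at stage 3, segment-like units form by stage 4, and by stage 5 the longer outgrowth has begun to differentiate. Time and dissected tissue change together between the 2 sets of samples, and their contributions cannot be told apart. In such bulk tissue, fewer cells of a type and less RNA per cell cannot be told apart either.

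An echinoderm arm wound is first closed by migrating epidermis and coelomocytes, the circulating immune cells of the body cavity. A bud of proliferating cells then forms below the new epidermis, grows out and differentiates into the nerve, water canal, skeleton and muscle of the new arm. Growing tissue of this kind needs DNA replication, histones, ribosomes and mitochondrial proteins, while the stump beside a wound keeps the muscles, ossicles and nerves of the old arm.

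Expression was taken as the deposited TPM values, which are transcript abundances per length that the authors rescaled between samples by the trimmed mean of M-values (TMM), and was analysed as log2(value + 1). Column totals ranged from 612357 at 72 hpa to 1866500 at stage 3, so results are also given with all 5 columns brought to an equal total. The table lists 28263 genes, of which between 3578 (72 hpa) and 9022 (stage 3) were at 0 in a sample. TPM keeps no read number, and the depth of each library is unknown. A gene was called higher (or lower) at stages 3 to 5 if the mean of the 3 stages differed from the mean of 48 and 72 hpa by at least 1 on the log2 scale and the 2 sets of samples did not overlap. No p-value was computed, since the samples within a set are different stages and not replicates.

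Of 13816 genes that reached a value of 1 in at least 1 of the 5 samples, 1176 (8.51%) were higher and 1989 (14.4%) were lower at stages 3 to 5. The lower genes had the larger differences. Their median difference was -1.63 on the log2 scale against 1.34 for the higher genes, and 322 of them differed by at least 3 against 22 of the higher genes. Over all 13816 genes the median difference was -0.02. Among the lower genes, 266 were listed at 0 in all 3 stages, and 10 of the higher genes were listed at 0 at both 48 and 72 hpa. The samples within a set were more alike than samples of different sets. The standard deviation across genes of the log2 difference was 0.55 between 48 and 72 hpa and between 0.55 and 0.75 among stages 3, 4 and 5, but between 1.17 and 1.34 for every pair of a wound sample and a stage. Among the higher genes, 550 (46.8%) had their highest value at stage 3, 389 (33.1%) at stage 4 and 237 (20.2%) at stage 5. Among the lower genes, 1396 (70.2%) were highest at 48 hpa and 593 (29.8%) at 72 hpa.

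The split between both directions depended on the scaling. The higher genes already held 61.69% of the column total at 48 hpa and 60.6% at 72 hpa, and they held 88.67%, 86.11% and 78.99% at stages 3, 4 and 5. The lower genes held 17.57% and 15.46% of the total in the wound samples and between 0.8% and 1.3% at the 3 stages. With equal totals the median difference of all genes was -0.65, and 282 of 15556 genes (1.81%) were higher and 4673 (30%) lower. All 282 had been called higher in the deposited values, and all 1989 lower genes of the deposited values were lower again. Every wound total was below every stage total, so equal totals lower the stages against the wound samples. No lower call could therefore be lost, and the repeat of the lower calls is fixed by the scaling and gives no support. When differences at equal totals were taken relative to this median, an alternative chosen after the data were seen, 1246 genes were higher and 2002 lower, of which 857 and 1795 were shared with the deposited values. Relative to the median gene, the counts were thus close under both scalings, and a gene described below as higher is higher relative to that gene. Genes that were higher under both scalings are named as such.

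**Figure D1:**
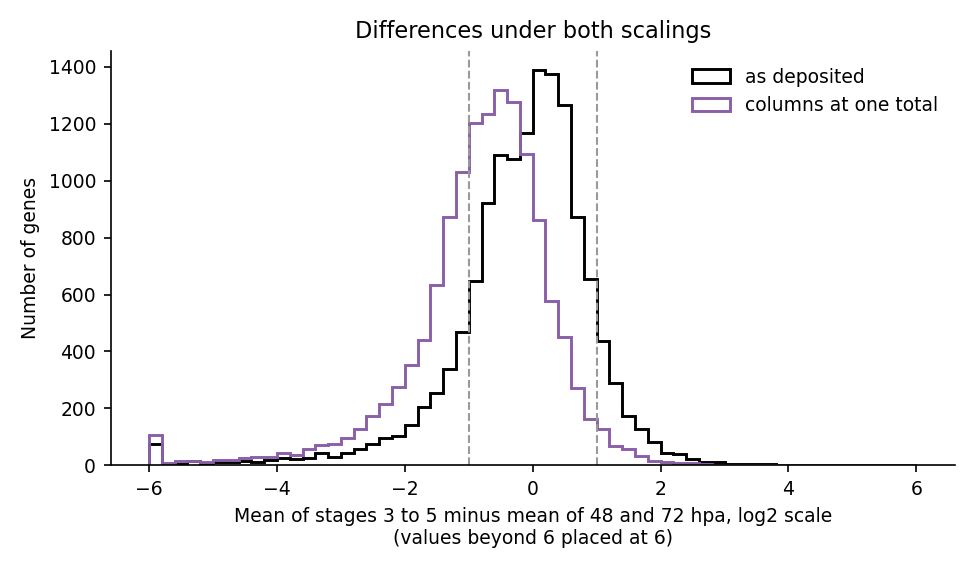
Number of genes (vertical axis) by the difference between the mean of stages 3 to 5 and the mean of 48 and 72 hpa on the log2 scale (horizontal axis), for the deposited values (black) and for columns brought to an equal total (purple, same 13816 genes). Dashed lines mark differences of -1 and 1, and the whole distribution lies further left at equal totals, where the median over all genes tested was -0.65 against -0.02.

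The mature arm, sampled as a non-regenerating control segment per the methods, was used to divide the called genes by a single threshold on its value. The labels name this library's tissue as a regenerating explant, which differs from the methods, and it is a single library like the others. Since names were limited to chromosome 1, the tissue of each library was not checked against a full set of muscle, skeletal or nerve markers. Of the 1989 lower genes, 1533 (77.1%) had a control value within 1 of the wound mean on the log2 scale, or above that mean. Their median was 3.41 in the control, 2.95 and 2.68 in the wound samples, and 0.65, 0.66 and 0.64 in the stages. The control exceeded the wound mean in 1001 lower genes, and so this class also holds genes far above their wound level in the mature arm. The other 456 lower genes had a median of 1.24 in the control, 3.1 and 2.93 in the wound samples, then 1.07, 1.11 and 1.19 at the 3 stages. The division fixes that these genes were higher in the wound samples than in the mature arm, and the medians are given as a description of both classes.

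Of the 1176 higher genes, 488 (41.5%) were also within 1 of the stage mean in the control, or above that mean. Their median was 3.38 in the control, 2.14 and 2.15 at 48 and 72 hpa, and 3.82, 3.68 and 3.49 at stages 3, 4 and 5. The other 688 had a median of 1.68 in the control, 1.87 and 2.13 in the wound samples and 3.62, 3.73 and 3.61 at the stages, and low values in the mature arm and at the wound are again what the division selects. In the later regenerates, the 2 samples taken when 50% of the new arm was differentiated, the distance to stages 3 to 5 depended on the scaling for the proximal tissue. At the 50% D stage, 1058 higher genes (90.0%) and 1808 lower genes (90.9%) were nearer to the mean of the stages than to that of the wound samples. At the 50% P stage these counts were 488 (41.5%) and 1340 (67.4%). With equal totals, an alternative added after the data were seen, they were 1043 (88.7%) and 1851 (93.1%) for 50% D and 884 (75.2%) and 979 (49.2%) for 50% P. The column total of 50% P (551379) was close to those of the wound samples and that of 50% D (979118) closer to those of the stages.

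**Figure D2:**
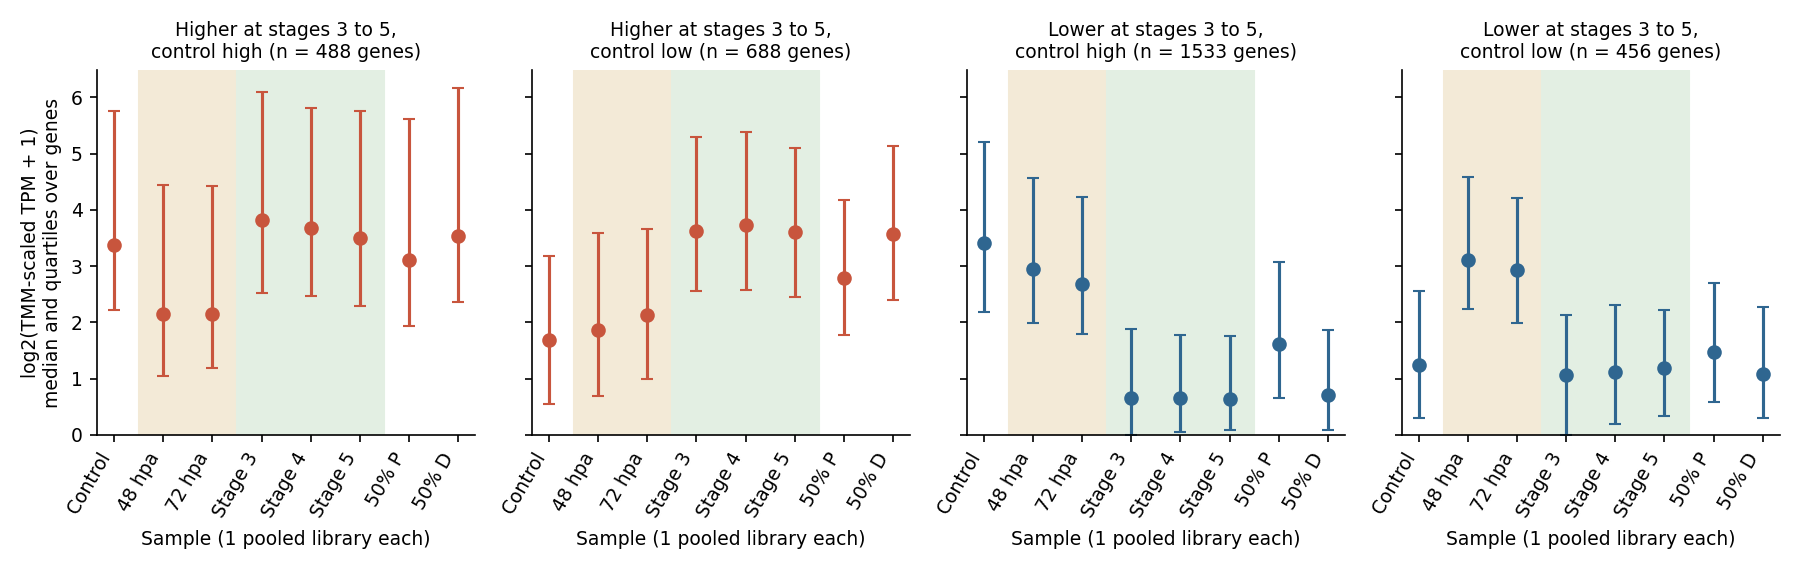
Median (points) and quartiles (bars) over genes of log2(TMM-scaled TPM + 1) in each of the 8 samples of the arm regeneration series, for the called genes divided by their level in the control. The wound samples are shaded beige and stages 3 to 5 green. The medians of the 1533 genes lower at stages 3 to 5 and high in the control are 0.64 to 0.66 at the stages, and those of the 456 others are 3.1 and 2.93 at 48 and 72 hpa. The direction between classes is set by how the genes were divided.

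Gene names were paired with identifiers only for chromosome 1, from a supplementary gene table in which names are the best matches to SwissProt proteins. The genes with the largest differences in the whole table are therefore given by identifier. AFI10151 had wound values of 3.86 and 7.38 (48 and 72 hpa, in this order throughout) and stage values of 124.75, 116.35 and 108.06 (stages 3, 4 and 5). The control value was 4.34, and its difference was 4.20 on the log2 scale (3.33 at equal totals). AFI07809 had values of 15.27 and 22.04 in the wound samples and 232.17, 336.68 and 267.77 at the stages, with 9.20 in the control. AFI07035 was at 1.10 and 2.69 in the wound samples and at 40.45, 41.83 and 31.59 at the stages. All 3 genes were low in the mature arm and at the wound, and their lowest stage value was more than 10 times the highest wound value. The lower genes with the largest differences were abundant in the mature arm. AFI23956 reached 21897.41 in the control and 2832.06 and 1632.82 in the wound samples. Its values were 0.25 and 1.73 at stages 3 and 4, and it was listed at 0 at stage 5. AFI22879 was at 2150.10 and 1610.64 in the wound samples and AFI09739 at 1880.64 and 1413.88. Both were listed at 0 at stages 3 and 5 and were below 2 at stage 4.

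On chromosome 1, 554 genes passed the filter, of which 48 (8.7%) were higher and 70 (12.6%) lower. Only 5 named genes with a value of at least 10 were higher under both scalings. Psf1 (AFI29993, chromosome 1, 46276098 to 46284188, minus strand), a subunit of the GINS complex that travels with the replicative helicase, had wound values of 2.49 and 4.94 and stage values of 27.16, 38.57 and 15.36. The 3 stages lay above both wound samples, with a difference of 2.53 (1.70 at equal totals), and the control was at 7.65. Acsf2-49 (AFI31390, 48056081 to 48060848), similar to an acyl-CoA synthetase of fatty acid activation, was at 5.45 and 4.33 in the wound samples and at 28.78, 16.78 and 24.68 at the stages. It was listed at 0 in the control, a single library, unlike the other 4 genes. The explants described below are a separate set of values. In their uncut medial segments Acsf2-49 ranged from 0 to 5.65 at 3 days after amputation and from 0.687 to 6.37 at 5 days. Rdh8-39 (AFI29997, 52675612 to 52679073), similar to a retinol dehydrogenase, was at 1.97 and 1.24 and then at 11.25, 11.16 and 13.07. Kazd1-1 (AFI30208, 59106982 to 59116312), a protein with a Kazal-type protease inhibitor domain, was at 9.77 and 9.51 and then at 37.82, 47.32 and 44.43. Nrx4-4 (AFI31963, 48581824 to 48608352), named after neurexin-4, which in *Drosophila* is part of septate junctions, was at 2.14 and 2.18 and then at 8.51, 11.33 and 11.12. The control values of Rdh8-39, Kazd1-1 and Nrx4-4 were 7.98, 20.59 and 7.81, between the wound samples and the stages.

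Of the named genes with a value of at least 10, 12 were lower, which for lower genes holds under both scalings by construction. These 12 did not share a single profile. Agrg7-5 (AFI31186, 37234326 to 37259850), similar to an adhesion G protein-coupled receptor, had wound values of 18.90 and 6.41 and stage values of 0.15, 0.15 and 0.11. The control value was 0.57, so that its high values were those of the wound samples alone. Sept3 (AFI31077), a septin, a family of filament-forming GTP-binding proteins, C42s2 (AFI31128, 34067073 to 34150066), named after a small effector of the GTPase CDC42, and Glna-7 (AFI31582, 10334672 to 10364318), similar to glutamine synthetase, also had control values below every wound sample. C42s2 was at 47.24 and 43.17 in the wound samples, at 6.12, 17.07 and 16.65 at the stages and at 5.49 in the control. Glna-7 was at 12.57 and 10.76, then at 4.00, 5.16 and 5.59, with 1.94 in the control. The control is a single library, and uncut medial segments of the explants described below are a separate set of values. There Glna-7 averaged 14.20 at 3 days and 14.91 at 5 days after amputation. Sept3 averaged 17.04 and 17.32, and C42s2 averaged 19.20 and 16.26. The low control values of these 3 genes were thus not repeated in medial segments, whereas Agrg7-5 was low there too, at 0.43 and 0.45. The other 8 genes were at least as high in the control as in 1 wound sample.

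Among these mature-arm genes, Aplp-2 (AFI30419, 20019318 to 20087407), similar to the lipid carrier apolipophorin, was at 19.65 and 20.40 in the wound samples, 3.71, 1.37 and 0.85 at the stages and 32.77 in the control. Its values were lower at each later stage. The phospholipase A2-like genes Pa22-3 (AFI31047, 2657012 to 2668670) and Pa22-2 (AFI30156, 931639 to 946244) were at 30.30 and 21.97, and at 10.77 and 15.96, in the wound samples. At the stages Pa22-3 ranged from 2.73 to 4.02 and Pa22-2 from 0.96 to 2.73, and their controls were at 52.14 and 25. If the transcripts of these genes are close in sequence, reads shared out between them by pseudo-alignment make each value uncertain. Zar1-2 (AFI31141, 30226331 to 30229440), named after an RNA-binding protein of oocytes, was at 61.31 and 23 and then at 3.93, 3.36 and 8.96. Nxn-1 (AFI30796, 24632017 to 24638138), similar to the thioredoxin-like oxidoreductase nucleoredoxin, was at 104.22 and 100.34 and then at 43.27, 16.93 and 28.45. Tm220 (AFI31185, 38721189 to 38728600), a predicted membrane protein, had the smallest difference of the 12, at -1.04, with values of 19.76 and 12.12 against 8.90, 7.09 and 5.47. Without 48 hpa its difference was -0.71, without stage 5 it was -0.88, and without stage 3 that of Glna-7 was -0.99, each below the threshold.

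**Figure D3:**
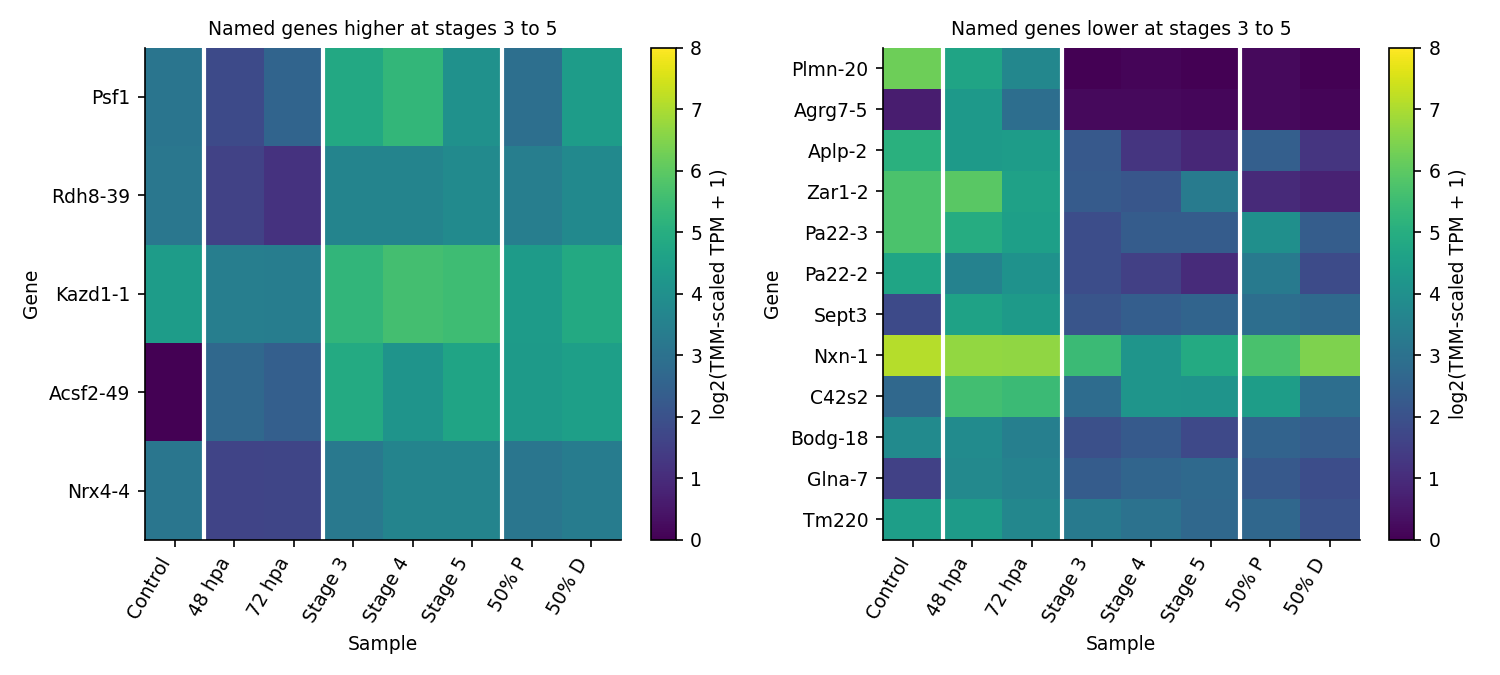
Expression of the 5 higher and the 12 lower named genes of chromosome 1 as log2(TMM-scaled TPM + 1) (colour scale) in the 8 samples (columns, separated by white lines into control, wound samples, stages 3 to 5 and the 50% regenerates). Agrg7-5, Sept3, C42s2 and Glna-7 are darker in the control than at 48 and 72 hpa, and Acsf2-49 is listed at 0 in the control.

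Genes of growth were described with 6 lists of chromosome 1 genes. Counts are given beside the 8.51% higher and 14.4% lower of all genes, and no list was tested. Of 10 DNA replication and repair genes that passed the filter (of 11), 4 were higher and none lower, and the list median was 0.91. Besides Psf1, Mutyh (AFI30175), a glycosylase of base excision repair, was at 0.61 and 0.89 in the wound samples and 5.76, 4.40 and 5.01 at the stages. Dctp1 (AFI30514), which removes aberrant dCTP from the nucleotide pool, was at 2.19 and 2.56 and then at 8.73, 10.98 and 10.30. The remaining higher gene, Xrcc3 (AFI31622), of recombination repair, named after its values were seen, did not exceed 2.74. Psf1 and Mutyh were also higher at equal totals, whereas Dctp1 reached 0.94 and Xrcc3 0.68 there.

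Of 11 translation genes, all of which passed the filter, 5 were higher, none was lower and all had a positive difference, with a median of 0.69. The large-subunit ribosomal protein genes were among the most abundant of all named genes. Rl37 (AFI30337, 32182046 to 32186785) was at 18770.77 and 13816.35 in the wound samples and at 76444.37, 54548.26 and 24651.43 at stages 3, 4 and 5. Rl21 (AFI29844) was at 4301.26 and 3413.40 and then at 16243.92, 11154.49 and 5681.46. Rl3 (AFI31672) was at 1299.88 and 1145.53 and then at 3657.20, 3122.86 and 2245.90. In the control Rl37 was at 52692.05 and Rl21 at 11072.15, both close to stage 4 and above stage 5. The control value of Rl3 was 1534.28, below every stage. All 3 were highest at stage 3 and declined through stages 4 and 5, the same order as the column totals. At equal totals their differences were 0.58, 0.43 and 0.31, no member of the list was called, and the list median was 0.03 against -0.65 for all genes. The other higher members, Dph5 (AFI31650), of diphthamide synthesis on elongation factor 2, and Rt18a (AFI30561), of the mitochondrial ribosome, were named after their values were seen. They were at 3.16 and 4.27 in the wound samples and 10.97, 10.15 and 9.64 at the stages, and at 21.80 and 23.90 and then 48.17, 57.68 and 40.12. The difference of Rt18a was 0.98 without 48 hpa and 0.92 without stage 4, below the threshold.

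No ribosome biogenesis gene of 9 was called, although all 9 had a positive difference as deposited (median 0.46). At equal totals the median was -0.33, and only Exos3 kept a positive difference. Exos3 (AFI31373), of the RNA exosome that trims ribosomal RNA, was at 12.35 and 14.70 and then at 25.13, 35.10 and 24.35. Its difference of 0.99 missed the threshold, and it passed without 72 hpa, stage 3 or stage 5 (1.11, 1.06 and 1.09). Pno1 (AFI30687), an assembly factor of the small subunit, was at 20.27 and 17.96 and then at 22.18, 33.79 and 25.24. Of 20 transcription and RNA processing genes, 2 were higher and none lower (median 0.42, and -0.26 at equal totals). These were Lsm7 (AFI31246), of the ring that binds the U6 spliceosomal RNA, and Rpab1 (AFI31073), a subunit shared by the nuclear RNA polymerases. Rpab1 was at 39.26 and 34.66 and then at 87.40, 80.28 and 61.82, and its difference of 1.02 was 0.93, 0.92 and 0.98 without 72 hpa, stage 3 and stage 4.

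Of 14 mitochondrial genes, 3 were higher and none lower, with a median of 0.60. Clpp (AFI29753, 54968427 to 54986907), the protease of the mitochondrial matrix, was at 40.38 and 44.82 in the wound samples, 172.22, 146.00 and 105.89 at the stages and 44.37 in the control. Glrx5 (AFI30795), of iron-sulfur cluster assembly, was at 142.47 and 145.20 and then at 320.54, 449.12 and 218.41, and without stage 4 its difference was 0.87. Atp5h, of ATP synthase, was at 339.97 at 48 hpa and 652.54 at stage 5. Clpp reached 0.73 at equal totals, Atp5h 0.42 and Glrx5 0.17. Of 12 genes of mitosis, centrioles and chromatin, 3 were higher and 1 lower (median 0.27). H331 (AFI31178, 60502066 to 60503301), a histone H3.3 gene, was at 4899.51 and 4185.28 and then at 13341.01, 14165.73 and 10811.69, with 4418.97 in the control. Ube2s-2 (AFI30543), similar to a ubiquitin-conjugating enzyme of the anaphase-promoting complex, was at 11.44 and 9.42 and then at 21.85, 22.03 and 21.69, and its difference of 1.01 was 0.88 without 72 hpa. The remaining genes were named after their values were seen. Ccng2 (AFI29847), a cyclin G, was higher and did not exceed 3.15. Cdn2a (AFI30891), named after a cyclin-dependent kinase inhibitor, was lower with a highest value of 3.11, and its difference of -1.20 was -0.85 without 48 hpa and -0.95 without stage 3.

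**Figure D4:**
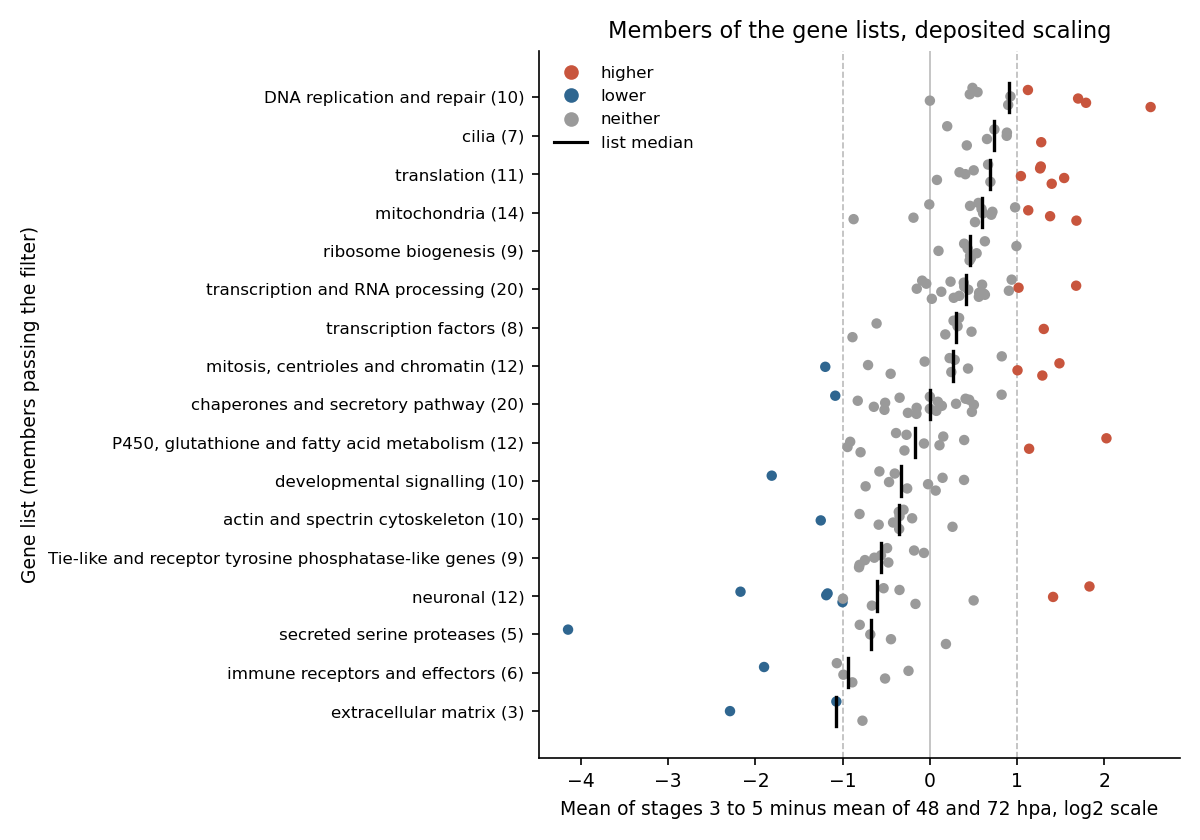
Difference between the mean of stages 3 to 5 and the mean of 48 and 72 hpa on the log2 scale (horizontal axis) of each list member that passed the filter (points, deposited scaling), with the list median as a black bar and the number of members in brackets. Red points were called higher, blue points lower and grey points neither, and dashed lines mark -1 and 1. The medians run from 0.91 for DNA replication and repair to -1.07 for the 3 extracellular matrix genes.

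The lists for matrix, nerve, defence, signalling, chaperones and cytoskeleton held few called genes each, several at shares close to the 14.4% lower of all genes. Of 3 extracellular matrix genes that passed the filter (of 18), 2 were lower. Coca1-3 (AFI31984, 40202906 to 40218932), a collagen chain of the fibril-associated type, was at 5.27 and 5.53 in the wound samples, 2.21, 1.33 and 2.77 at the stages and 15.83 in the control, and its difference of -1.07 was -0.88 without stage 4. Agrin-17 (AFI31864), similar to a basement membrane proteoglycan and named after its values were seen, was at 3.62 and 4.56 and then at 0.02, 0.09 and 0, with 10.66 in the control. Both genes were highest in the mature arm. Of 12 neuronal genes (of 38), 2 were higher and 4 lower, with a median of -0.60. Beside Nrx4-4, Ach10-33 (AFI30620), similar to a nicotinic acetylcholine receptor subunit, was higher with values of 0.71 and 0.39 and then 3.14, 2.58 and 3.68. The lower genes included Acha6-7 (AFI31791), of the same receptor family, at 4.57 and 4.85 in the wound samples, 0.28, 0.21 and 0.32 at the stages and 50.77 in the control. Receptor genes of a single family thus differed in direction. The lower Acha3-11 (AFI31771), Sc6a9-14 (AFI30280), similar to a glycine transporter, and Eaa1 (AFI31549), similar to a glutamate transporter, did not exceed 3.48. All of these but Nrx4-4 were named after their values were seen. Without 48 hpa, Sc6a9-14 (-0.89) and, narrowly, Eaa1 missed the threshold, as did Sc6a9-14 without stage 3 (-0.85).

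Of 6 immune receptor and effector genes (of 23), 1 was lower, none was higher and none had a positive difference (median -0.94). Co3-6 (AFI31568, 23797034 to 23914984), similar to complement component C3, was at 5.66 and 8.78 in the wound samples, 0.69, 1.35 and 1.54 at the stages and 1.66 in the control. Within this series it was thus high in the wound samples alone. In uncut medial segments of the explants described below, a separate set of values, Co3-6 averaged 9.77 at 3 days and 11.3 at 5 days after amputation. Of 5 secreted serine protease genes, 1 was lower, Plmn-20, which was also the named gene with the largest difference (-4.15) and was highest in the control (median of the list -0.68). Of 10 developmental signalling genes, 1 was lower (median -0.33), Tgbr3 (AFI31491, 35000360 to 35084010), named after a co-receptor of transforming growth factor beta. Tgbr3 was at 5.79 and 6.09 and then at 2.07, 0.97 and 0.28, with 8.09 in the control. Of 20 chaperone and secretory pathway genes, 1 was lower (median 0.00), Dnjb4-2 (AFI31787), a DNAJ co-chaperone, at 6.49 and 6.31 and then at 2.29, 2.59 and 2.60. Of 10 actin and spectrin cytoskeleton genes, 1 was lower (median -0.35), Actc-13 (AFI31200), an actin that did not exceed 2.60, was named after its values were seen and was at -0.98 without 48 hpa. Swp70 (AFI31863), which links membrane lipids to actin, was at 7.48 and 3.85 and then 3.29, 2.02 and 2.81 and was not called with 5 samples (-0.81), but was without 72 hpa (-1.21). Arpin (AFI30697), an inhibitor of the actin-nucleating Arp2/3 complex, was at 2.76 and 4.91 and then 7.29, 5.35 and 2.41, with overlapping sets.

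The remaining lists gave few calls. All 7 cilia genes that passed the filter (of 15) had a positive difference (median 0.74), and 1 was higher, Drc8 (AFI30263), of the axonemal dynein regulatory complex, at 4.06 and 4.89 and then 13.87, 13.82 and 9.50. Of 8 transcription factors (of 18), 1 was higher (median 0.30), Thap1 (AFI30873), a zinc finger protein, at 2.04 and 1.54 and then 7.30, 7.13 and 3.79. Of 12 genes of P450, glutathione and fatty acid metabolism (of 45), 2 were higher (median -0.17), Acsf2-49 and the glutathione transferase Gstt3-2 (AFI30404), at 8.28 and 9.47 and then 19.36, 21.70 and 21.12. None of the 9 Tie-like and receptor tyrosine phosphatase-like genes that passed (of 46) was called, and none had a positive difference (median -0.56). Tie2-26 (AFI30219), named after a receptor tyrosine kinase, was at 4.51 and 3.43 and then 6.02, 2.66 and 0, and its difference of -0.74 became -1.37 without stage 3. Tie2-25 (AFI30154) was at 2.47 and 2.35 and then between 1.42 and 1.52. None of the 8 reverse transcriptase-like genes, of which 6 were in the table, passed the filter. At equal totals Drc8, Thap1 and Gstt3-2 were at 0.44, 0.60 and 0.25 and were not called, and all lists other than translation, DNA replication and repair and cilia had a negative median.

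By the gene ages given in the same table, the 298 genes of chromosome 1 traced to cellular organisms were 11.7% higher and 8.7% lower, whereas the 65 genes found only in *A. filiformis* were 9.2% higher and 21.5% lower. The 178 genes with no SwissProt match were 5.6% higher and 20.2% lower. The shares did not follow the order of gene age. The 72 genes traced to Eukaryota were 4.2% higher and 13.9% lower, the 36 traced to Eumetazoa 5.6% and 11.1%, and the 23 traced to Bilateria 4.3% and 17.4%, against 8.7% and 12.6% for all 554 genes. The other age classes held at most 16 genes each, and no difference between classes was tested.

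Separate and replicated samples exist for explants, arms severed at both ends and kept in culture. Per the methods each sample is a batch of 150 to 200 explants that regenerate at their distal end, and distal segments were compared with the uncut medial segments of the same arms at 3 and 5 days post amputation (dpa), with 4 samples per group at 3 dpa and 3 at 5 dpa. The explants were dissected into proximal, medial and distal sections, so a distal segment includes old arm beside any new tissue. At stages 3 to 5 only new tissue was taken. The explant values were not used to call genes in the time course. By limma over 21442 genes with Benjamini–Hochberg adjustment, 364 genes (1.70%) were higher and 61 (0.284%) lower in distal segments at 3 dpa, and 733 (3.42%) were higher and 440 (2.05%) lower at 5 dpa. Of the 1176 genes higher at stages 3 to 5, 1159 were tested in the explants. At 5 dpa 292 of these (25.2%) were higher in distal segments and 1 was lower, and at 3 dpa 81 (7.0%) were higher and none lower. Their median log2 fold change was 0.24 at 3 dpa and 0.67 at 5 dpa, against 0.01 for all explant genes at both times. Of the 1989 genes lower at stages 3 to 5, 1983 were tested, of which 201 (10.1%) were lower and 36 (1.8%) higher in distal segments at 5 dpa. At 3 dpa 26 (1.3%) were lower and 46 (2.3%) higher. Conversely, of the 733 genes higher in distal segments at 5 dpa, 724 were tested in the time course. At stages 3 to 5, 292 of them were higher, 39.8% of the 733. Of the 440 genes lower in distal segments at 5 dpa, only 339 were tested in the time course, and 201 were lower there, 45.7% of the 440. Over all genes tested in the time course 8.51% were higher and 14.4% lower.

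The called genes were also counted by their control level. The 674 tested genes that were high at the stages and low in the mature arm held 251 genes (37.2%) that were higher in distal segments at 5 dpa and 78 (11.6%) at 3 dpa. For the 485 that were also high in the mature arm these counts were 41 (8.5%) and 3 (0.6%). Distal against medial segments sets a regenerating end, with its old arm, against uncut arm, so the division by the control itself favours this order of shares. Of the 1532 lower genes that were high in the mature arm, 185 (12.1%) were lower and 10 (0.7%) higher in distal segments at 5 dpa, and 21 (1.4%) were lower and 8 (0.5%) higher at 3 dpa. The 451 lower genes that were low in the mature arm held 38 genes (8.4%) that were higher in distal segments at 3 dpa and 26 (5.8%) at 5 dpa, against 5 (1.1%) and 16 (3.5%) that were lower. Genes tested in the time course and not called (10427) were higher in distal segments in 2.2% of cases at 3 dpa and 3.8% at 5 dpa. They were lower in 0.2% and 1.3%. The differences between these shares were not tested. With both tables at equal totals, 85 of 273 genes that were higher at stages 3 to 5 were higher in distal segments at 5 dpa (31.1%), and 12 (4.4%) at 3 dpa, against 1.82% and 1.89% of all 21975 explant genes at equal totals. Of 4644 lower genes, 381 (8.2%) were lower in distal segments at 5 dpa and 29 (0.6%) at 3 dpa, against 2.68% and 0.232% of all genes.

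**Figure D5:**
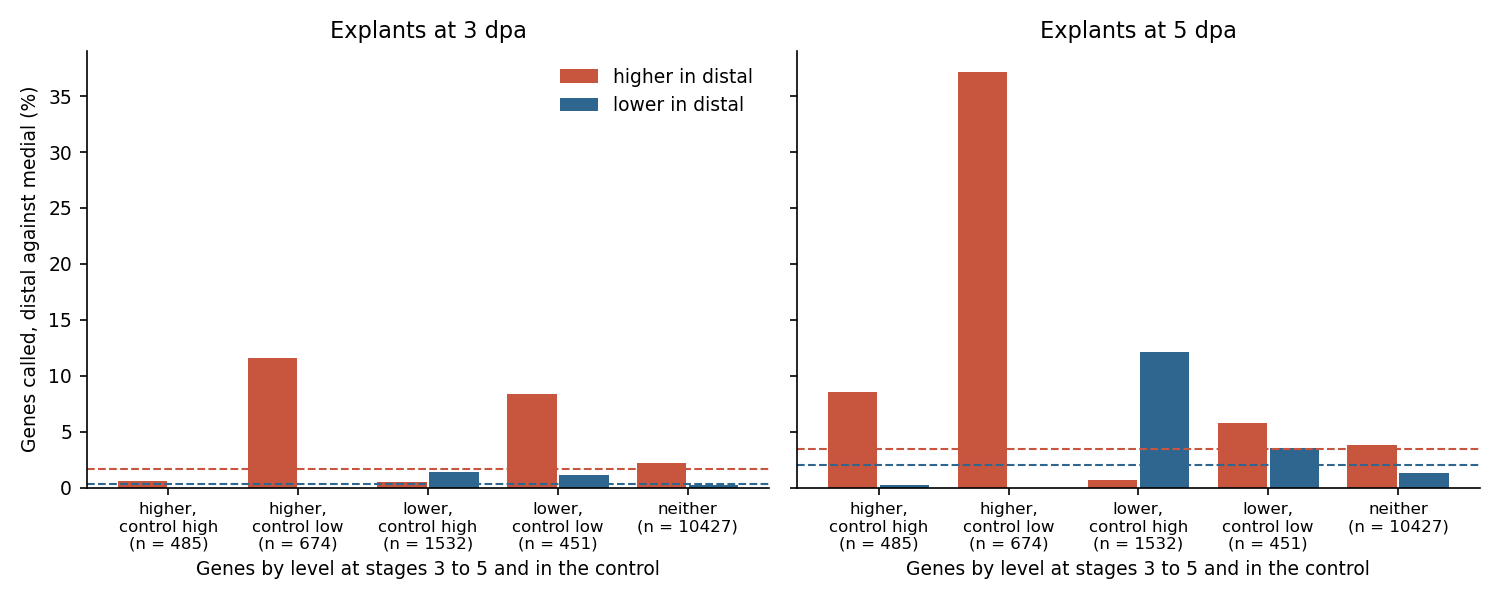
Share of genes called higher (red) or lower (blue) in distal than in medial explant segments (vertical axis, percent) at 3 dpa (left) and 5 dpa (right), for genes grouped by their level at stages 3 to 5 and in the control (horizontal axis, n tested in the explants). Dashed lines give the share over all 21442 genes. The tallest bar is the 37.2% at 5 dpa of genes high at the stages and low in the control. The order of the classes is favoured by how the genes were divided.

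The named genes differed in whether they were also called in the explants. The 3 higher genes with the largest differences were, at 5 dpa. AFI10151 was at 51.1 ± 5.98 in distal and 6.54 ± 0.323 in medial segments at 5 dpa (SD, n = 3 each), a log2 fold change of 2.78 ± 0.16 (SE, limma adjusted p = 1.692e-08), and at 7.67 ± 0.673 and 4.72 ± 0.874 at 3 dpa (n = 4 each). AFI07035 was at 18.8 ± 4.46 against 2.25 ± 1.41 at 5 dpa and AFI07809 at 137 ± 60.2 against 21.9 ± 7.87, and both rose past the threshold in the limma test (adjusted p = 2.149e-06 and 6.283e-05). Psf1 was at 28.6, 21.2 and 18 in the 3 distal samples at 5 dpa and between 3.68 and 5.36 in the medial samples, a log2 fold change of 2.16 ± 0.24 (limma adjusted p = 1.329e-05). At 3 dpa it was at 8.23 ± 1.15 against 5.00 ± 0.587 and did not pass (limma adjusted p = 0.07249). The other named genes that were higher under both scalings, Rdh8-39, Kazd1-1, Acsf2-49, Nrx4-4 and Mutyh, were not called in the explants at either time. Their log2 fold changes at 5 dpa were 0.46, 0.85, 1.51, 0.57 and 0.67, with adjusted p of 0.2036, 0.02616, 0.0837, 0.02236 and 0.02176 by limma. Clpp rose at both times, with log2 fold changes of 1.10 ± 0.19 at 3 dpa and 1.65 ± 0.22 at 5 dpa (limma adjusted p = 0.001103 and 9.6e-05). In the growth lists, Lsm7, Glrx5, Dctp1 and Xrcc3 were also higher in distal segments at 5 dpa, Rt18a at 3 dpa and Dph5 at both times. Rpab1, Atp5h, H331, Ube2s-2 and Ccng2, higher in the time course, were not called at either time, nor was any of the 16 members of the mitosis list. Rpab1 passed the p threshold of the limma test at both times (0.73 and 0.84, adjusted p = 0.006118 and 0.004319) but missed that of the fold change. The same was true of Atp5h at 5 dpa (0.71, limma adjusted p = 0.03804). Beyond the genes called in the time course, Pur9 (AFI30136), of purine synthesis, Phb2 (AFI30853), a prohibitin, and Grpe1 (AFI30384), of mitochondrial protein import, were higher in distal segments at both times. These 3 genes, chosen after their values were seen, had time-course differences of 0.90, 0.98 and 0.71, under the threshold. The chaperone genes Hsp83, Hs90b, Tbcb and Bag1, likewise chosen, were higher at 5 dpa, with log2 fold changes from 1.01 to 1.45. The ribosomal protein genes Rl37, Rl21 and Rl3 were not called at either time.

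Ribosome biogenesis genes, none of which was called between the wound samples and the stages, were called in the explants. At 3 dpa 6 of 9 were higher in distal segments, Wdr36, Exos3, Pno1, Diexf, Wdr18 and Lyar, and at 5 dpa 3 were, Wdr36, Exos3 and Diexf, with list medians of 1.06 and 0.88. In the time course, Lyar had a control value of 2.21, wound values of 4.54 and 6.10 and stage values of 7.66, 7.02 and 8.17, and Diexf was at 0.913 in the control and 4.07, 2.66, 4.10, 5.67 and 4.78 in the 5 samples in order. Both genes, like Wdr36, Wdr18 and Rpp40, were named after their values were seen. Of the 9 genes, 7 were above the mature arm in both wound samples. The exceptions were Wdr18, at 3.93 at 48 hpa against 4.90 in the control, and Rpp40, at 1.68 at 72 hpa against 1.85. Being above the mature arm in both wound samples was not particular to this list. It held for 18 of 20 chaperone and secretory pathway genes, 15 of 20 of transcription and RNA processing and 10 of 14 mitochondrial genes. In other lists it was rarer, with 2 of 10 DNA replication and repair genes and 1 of 12 neuronal genes. The share over all genes was not computed.

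Among the lower genes, Agrg7-5 was higher in distal segments at 3 dpa, with 2.11, 2.48, 2.51 and 4.07 against 0.266 to 0.612 in medial segments (log2 fold change 1.39 ± 0.19, limma adjusted p = 0.0001386), and was not called at 5 dpa (0.25 ± 0.22). Dnjb4-2 was at 176 ± 22.7 in distal and 39.5 ± 14.9 in medial segments at 3 dpa (log2 fold change 2.19 ± 0.23, limma adjusted p = 9.722e-06) and was not called at 5 dpa (0.61 ± 0.27). Whether the change at 5 dpa differed from that at 3 dpa was tested for both, with adjusted p of 0.2448 and 0.1277 by limma, so no difference between the times was shown. Coca1-3, Agrin-17 and Acha6-7, all highest in the mature arm, were lower in distal segments at 5 dpa, and Acha6-7 at 3 dpa as well. AFI18858, a gene with a zf-Bbox domain, was at 10.73 and 3.36 in the wound samples, 0.62, 0.03 and 0.10 at the stages and 9.37 in the control. In distal segments it fell by 1.56 ± 0.28 at 3 dpa and by 1.58 ± 0.32 at 5 dpa on the log2 scale (limma adjusted p = 0.001425 and 0.00304). AFI33635 did not exceed 0.0516 in any of the 5 samples and did not pass the filter. In the explants it was at 5.13 ± 1.66 in distal and 1.92 ± 0.803 in medial segments at 3 dpa (limma adjusted p = 0.03151). At 5 dpa it was at 2.62 ± 0.222 and 2.26 ± 1.34 and was not called (limma adjusted p = 0.6904). The other 11 of the 12 named lower genes and the 3 lower genes with the largest differences were not called in distal segments at 3 or 5 dpa. Of these, Plmn-20 (-0.85, adjusted p = 0.04755) and AFI22879 (-0.74, adjusted p = 0.03948) at 5 dpa and Sept3 (0.73, adjusted p = 0.02382) at 3 dpa passed the p threshold of the limma test and missed that of the fold change. Distal segments include old arm, unlike the tissue of stages 3 to 5. AFI23956 averaged 15255 in distal and 17441 in medial segments at 3 dpa, and 14651 and 19961 at 5 dpa.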

How the data were processed

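Libraries were strand-specific per the labels. The authors quantified reads with kallisto on their gene models and rescaled TPM between samples with TMM, and the deposited tables hold this normalized signal. For the explants, the table's own label is the source for the TMM step. Columns were assigned to samples by name. TPM keeps no depth, so precision from read number is unknown.

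The time course was analysed with Python 3.11.15, numpy 2.4.6 and pandas 2.3.3. Genes with a maximum of at least 1 over the 5 samples were kept. Log2(value + 1) was averaged within each set, and a call needed a difference of at least 1 and no overlap. The explants were fitted with limma 3.58.1 (R 4.3.3, eBayes with trend) on log2(value + 1), over 20 samples in 6 groups, and genes had to reach 1 in 3 or more samples. A gene was called at an adjusted p below 0.05 if its log2 fold change exceeded 1 in either direction. Each explant sample was a batch homogenized on its own. Distal and medial segments came from the same arms per the methods, but which samples share arms, animals or aquaria is not given. The main fit took all samples as independent. Its p-values measure the spread between these batches and do not account for shared animals. Both steps were run on simulated data with planted changes, as a check that the code works. For the time course the simulated noise was set below the spread between samples of a set, so the check does not measure how reliable the calls are.

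The named genes are those of chromosome 1 (1193 genes in the part of the gene table used) with the largest difference, up to 12 per direction, called under both scalings with a maximum of at least 10. Further genes are up to 3 per gene list and direction, called with a maximum of at least 5, or, where none was called, the 2 members with the highest values. The 3 genes with the largest difference in each direction and 2 genes given by identifier in the paper were added. Other genes named are stated as chosen after their values were seen. The 18 lists hold chromosome 1 genes only. Lists, rules and samples were chosen with earlier results of these data known. No identifier could be matched to RefSeq, so sequences and genes of other chromosomes are not described.

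Alternatives were equal column totals, median of ratios, other pseudocounts, filters and call rules, each sample left out, and for the explants limma without trend, a fit of the compared groups and a replicate block. Repeats and GO terms were not analysed here.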

Additional observations from a re-analysis of the deposited data

Results flagged for a closer look

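A sample of Acsf2-49 stood apart in the distal explant segments at 3 dpa, where 1 of 4 samples was at 5.70 and the others at 2.62, 2.88 and 3.10. Chance marks about 1 in 20 groups of 4 in this way, and 50 such groups of 25 genes were looked at. The change in distal against medial segments differed between 5 and 3 dpa for AFI10151, by 2.17 on the log2 scale (limma interaction, adjusted p = 0.0001112), and for AFI07035, by 2.10 (adjusted p = 0.007241). In both genes the change was larger at 5 dpa. All 3 distal samples at 5 dpa lay above every distal sample at 3 dpa.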

How the results depend on the processing

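The counts of 1176 higher and 1989 lower genes were 282 and 4673 at equal totals, 1973 and 3078 with a pseudocount of 0.1, 497 and 810 with a pseudocount of 5, 702 and 860 with a maximum of at least 10, 420 and 1120 where the nearest samples of both sets had to differ by at least 1, and 150 and 693 with a difference of at least 2. Higher genes made up 37.2% of calls as deposited and 5.7% at equal totals. With 1 of the 5 samples left out, 1201 to 1373 genes were higher and 1988 to 2458 lower, and the median of ratios gave 1153 and 1972. Of the 61 genes with calls or values named, none changed direction in the alternatives where it had been called. At equal totals 19 lost their call and 3 (Swp70, Tie2-25 and Tie2-26) gained it. In the explants, the counts at 3 dpa were 364 higher and 61 lower, and a pseudocount of 0.1 gave 105 lower. At 5 dpa the counts were 733 and 440, equal totals gave 400 higher, and a fit of only the 2 groups compared gave 213 lower. With each replicate left out the ranges were 329 to 397 higher and 46 to 75 lower at 3 dpa, and 560 to 861 and 311 to 536 at 5 dpa. Of the lower genes of the time course, 26 were lower in distal segments at 3 dpa, and 17 without distal replicate 3, distal replicate 4 or medial replicate 2. The 292 shared higher genes at 5 dpa became 191 with explant columns at equal totals and 187 with values of at least 10, and the 201 shared lower genes became 112 in the fit of 2 groups. The cause of these shifts was not tested.

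Distal and medial samples share replicate numbers. The deviations of same-numbered samples from their group means correlated at 0.14, 0.19, 0.02 and 0.28 at 3 dpa and at -0.04, -0.02 and 0.20 at 5 dpa, so the numbers were not taken as pairs. With the replicate number as a block, 365 genes were higher and 63 lower at 3 dpa, and 742 and 458 at 5 dpa.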
